A study of Mus musculus with 38 samples.

Results

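The 10 genes followed here belong to the machinery that moves cells from G1 into S phase, and were measured in mouse testes shortly after birth. They are the D cyclins Ccnd1, Ccnd2 and Ccnd3, the E cyclins Ccne1 and Ccne2, the germ cell A cyclin Ccna1, the kinase Cdk2, and the CDK inhibitors Cdkn1a, Cdkn2c and Cdkn2d. They were taken by symbol from the annotation of the array, which gave 23 probe sets for the 10 genes, of 34871 probe sets for 18135 genes with 1 gene on an autosome or the X chromosome. Ccna1 lies on chromosome 3, Ccne2 and Cdkn2c on 4, Ccnd2 on 6, Ccnd1 and Ccne1 on 7, Cdkn2d on 9, Cdk2 on 10, and Ccnd3 and Cdkn1a on 17, so none lies on a chromosome that the substitution strains and crosses took from the donor. Whole testes were profiled on Affymetrix mouse genome arrays with 1 array per male, 38 arrays in all, in 6 groups of males at 5 days postpartum (dpp) and 5 groups at 7 dpp.

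B6 was the host strain and MSM the donor strain, which derives from another mouse subspecies. B6-ChrXMSM carried nearly the whole MSM X chromosome on the B6 background, B6-ChrXTMSM carried the distal part of it, and the congenic XS39-tel, profiled at 5 dpp, carried a smaller and more distal piece. The F1 males came from B6-ChrXTMSM females and B6-Chr1MSM males, so that they had the MSM distal X chromosome and 1 MSM copy of chromosome 1. Both substitution strains and the F1 males were otherwise B6. Each group held 3 males, apart from 8 F1 males at 7 dpp. No tissue was sorted, so a lower signal in a testis can come from fewer cells of a type or from less RNA per cell, and the 2 cannot be told apart in bulk samples.

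As background, D cyclins are made in response to growth signals and bind Cdk4 and Cdk6, and the active kinases phosphorylate the retinoblastoma protein and free E2F factors. E cyclins then bind Cdk2 and drive entry into S phase, while A cyclins act during S phase and in the divisions that follow, with Ccna1 known for its role in male meiosis. The inhibitors of the INK4 family, which include Cdkn2c (p18) and Cdkn2d (p19), block Cdk4 and Cdk6, and Cdkn1a (p21), a target of p53, blocks cyclin and Cdk2 complexes. In the testis, Ccnd2 is known in Sertoli cells, in which it serves postnatal proliferation, and in spermatogonia as they differentiate.

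Values are log2 signals after robust multi-array averaging, and a gene is shown by its probe set of highest mean. A probe set was tested where its mean passed 3.32, the log2 of a linear signal of 10, in at least 1 of the groups compared, and it was called at an adjusted p below 0.05 with a fold change of at least 1.5 (limma, Benjamini-Hochberg over all probe sets tested, 2-sided). Of the 23 probe sets, 17 passed that level in every group and 3 in none, and 9 of the 10 genes had a shown probe set above it in every group. Median array signals ran from 2.63 to 2.71. The testes carried the markers of their tissue, with 12 of 12 Sertoli cell markers and 10 of 10 germ cell markers past the filter where B6-ChrXMSM and B6 were compared at 7 dpp. Where the same strains were compared at 5 dpp, 10 of 12 and 9 of 10 passed. The mean signal of 5 adipose markers varied between arrays, from 2.54 to 5.22 in B6 at 5 dpp against 2.05 to 2.31 in B6 at 7 dpp.

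RefSeq upstream windows were held for 7 of the 10 genes, and none for Ccnd1, Ccnd2 and Ccne2. Windows of 3 genes are printed here, since Cdkn2c and Ccnd3 were, like Ccnd2, lower at 7 than at 5 dpp in B6 with an adjusted p below 0.05, and Cdk2 was called in MSM. Each is the 250 bases before the annotated start in the reference assembly GRCm38.p6, which represents B6 and not MSM, written 5′ to 3′ on the strand of the gene. Capitals mark matches on either strand to GGGCGG (GC box), CCAAT, and TTTCCCGC or TTTGGCGC (E2F), and no matches in these windows overlap.
Cdkn2c, chr4:109666757-109667006, minus strand: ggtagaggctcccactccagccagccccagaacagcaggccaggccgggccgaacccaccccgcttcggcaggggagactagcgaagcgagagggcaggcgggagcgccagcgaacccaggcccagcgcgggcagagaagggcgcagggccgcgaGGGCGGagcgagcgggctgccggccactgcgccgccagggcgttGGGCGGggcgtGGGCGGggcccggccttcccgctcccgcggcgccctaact
Ccnd3, chr17:47593217-47593466, plus strand: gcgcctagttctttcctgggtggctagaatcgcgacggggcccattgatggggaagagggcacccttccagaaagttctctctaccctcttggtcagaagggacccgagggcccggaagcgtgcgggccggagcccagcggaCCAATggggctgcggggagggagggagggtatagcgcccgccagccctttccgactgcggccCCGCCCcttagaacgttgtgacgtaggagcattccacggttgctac
Cdk2, chr10:128705052-128705301, minus strand: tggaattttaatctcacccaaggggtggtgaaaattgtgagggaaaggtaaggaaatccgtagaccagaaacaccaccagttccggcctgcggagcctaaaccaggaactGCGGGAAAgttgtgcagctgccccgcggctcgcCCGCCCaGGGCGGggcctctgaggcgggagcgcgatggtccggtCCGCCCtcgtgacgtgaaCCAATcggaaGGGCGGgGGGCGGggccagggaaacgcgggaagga
The Cdkn2c window held 3 GC boxes, the Ccnd3 window 1 GC box and 1 CCAAT, and the Cdk2 window 5 GC boxes, 1 CCAAT and 1 E2F match. Among all 32851 windows of this length, 32.7% held a GC box, 33.8% a CCAAT and 1.3% an E2F match. The table holds a further window for Cdkn2c, with no match, and for Ccnd3, with 2 GC boxes, and those printed were chosen with their matches known. These are matches of letters and not binding sites.

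Ccnd2 was the member with the highest signal and the one that differed most between the ages in B6. At 5 dpp its shown probe set (1434745_at) read 9.97, 10.01 and 9.95 in the 3 B6 testes, and at 7 dpp 8.96, 9.17 and 9.10. The ages did not overlap, and the fall was 1.86-fold, or -0.90 on the log2 scale (SE 0.06, adjusted p = 6.8e-05 from limma). The other probe sets of the gene gave -0.56 to -1.15, and 6 of its 7 were called, in all 13 alternatives. These 6 were the whole of the member probe sets called between the ages in B6, 0 higher and 6 lower of the 20 that passed the filter, where 8.34% of all probe sets tested were called. The median over the member probe sets tested was -0.06, against 0.02 over all. Adipose markers were high in 2 of the 3 B6 testes at 5 dpp, with list means of 5.22, 4.66 and 2.54, while their Ccnd2 signals, in the same order, were the 3 given above.

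**Figure D1:**
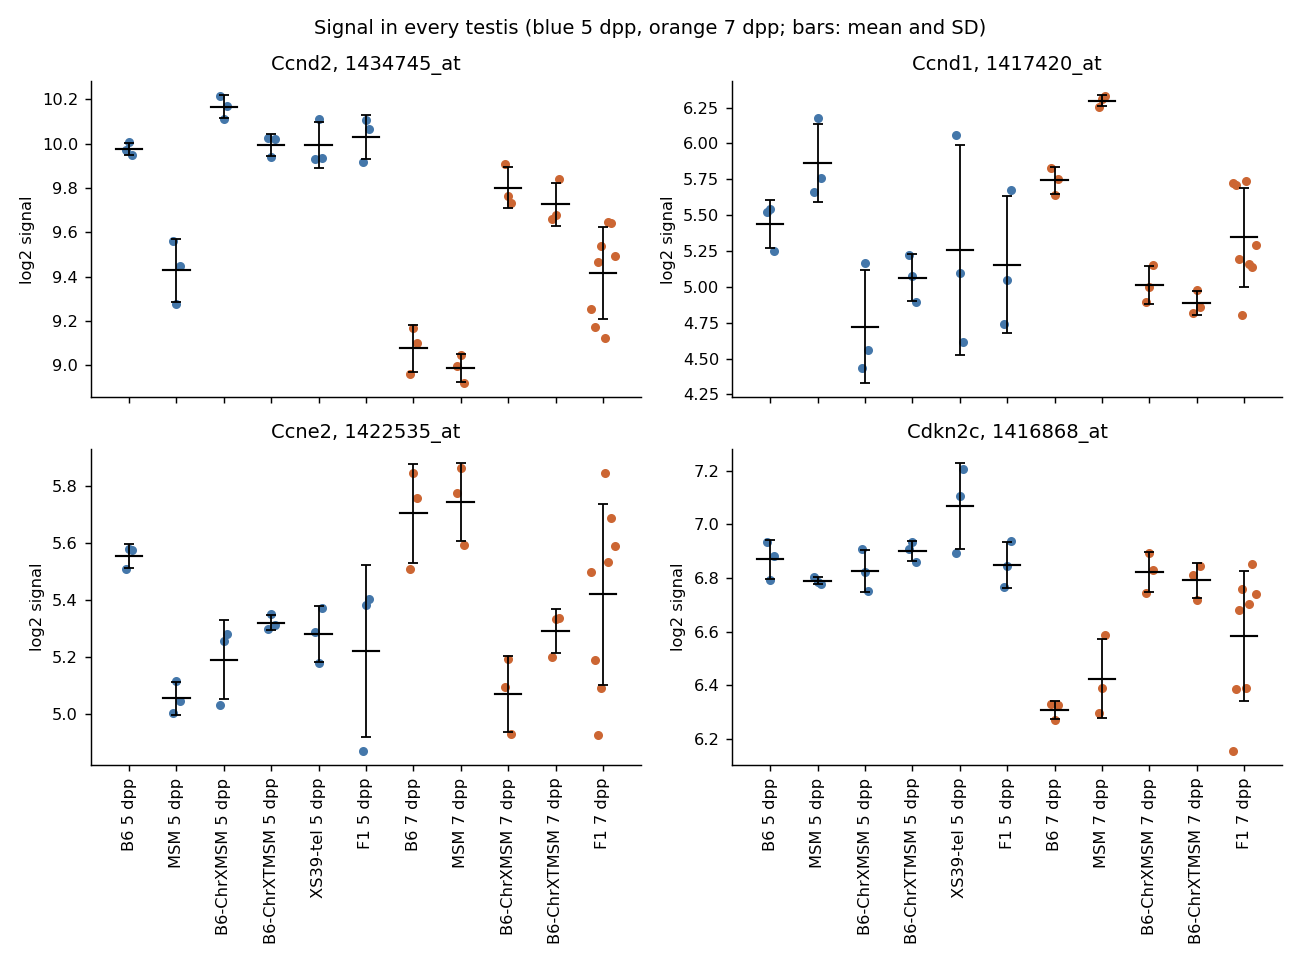
Log2 signal (vertical axis) of Ccnd2, Ccnd1, Ccne2 and Cdkn2c in every testis, by group (horizontal axis), where points are single males and bars show the mean and SD. The B6 testes at 7 dpp lay between 8.96 and 9.17 for Ccnd2, below every B6-ChrXMSM and B6-ChrXTMSM testis of that age.

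In both X substitution strains the Ccnd2 signal at 7 dpp was above that of B6. The B6-ChrXMSM testes read 9.91, 9.76 and 9.73 and the B6-ChrXTMSM testes 9.66, 9.68 and 9.84, all higher than the highest B6 testis at 9.17. The difference from B6 was 1.65-fold in B6-ChrXMSM (log2 fold change 0.72, SE 0.08, adjusted p = 0.000257 from limma) and 1.57-fold in B6-ChrXTMSM (log2 fold change 0.65, SE 0.08, adjusted p = 0.000709 from limma). The same 3 B6 arrays served in both comparisons. Of the 7 Ccnd2 probe sets, 6 were called higher in each strain, and the remaining one, the dim 1416124_at, gave 0.57 and 0.22 on the log2 scale. With the other members, 6 probe sets were higher and 3 lower of 20 tested in B6-ChrXMSM, against 6.08% of all probe sets called, and 6 were higher and 2 lower of 20 in B6-ChrXTMSM, against 5.73%. The medians over the member probe sets were -0.02 and 0.17, against 0.005 and 0.02 over all. One Ccnd2 probe set, 1448229_s_at, dropped under the fold minimum in B6-ChrXTMSM without B6 replicate 1 or without B6-ChrXTMSM replicate 3, the lowest value being 0.57.

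Markers of germ cells moved with these differences. The mean log2 signal of the 6 markers of differentiating spermatogonia was 4.24 to 4.39 in B6 at 5 dpp and 5.80 to 5.92 at 7 dpp, against 3.86 to 4.17 in B6-ChrXMSM and 3.97 to 4.42 in B6-ChrXTMSM at 7 dpp. All 6 of them were called lower in each substitution strain, as were 9 of 10 general germ cell markers. The 12 Sertoli cell markers had list means of 6.55 to 6.73 in B6, 6.77 to 6.86 in B6-ChrXMSM and 6.72 to 6.77 in B6-ChrXTMSM at 7 dpp, and 1 of 12 tested was called higher and 2 lower in B6-ChrXMSM, and 1 of 11 higher and 1 lower in B6-ChrXTMSM. The part of these cell types in the differences of Ccnd2 and Ccnd1 was not tested.

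At 5 dpp no Ccnd2 difference from B6 was called in a substitution strain or a cross. The shown probe set read 10.21, 10.11 and 10.17 in B6-ChrXMSM, above every B6 testis, by 0.19 on the log2 scale (adjusted p = 0.0917 from limma). In B6-ChrXTMSM it read 10.03, 9.94 and 10.02, in XS39-tel 9.93, 10.11 and 9.94, and in the F1 males 9.92, 10.11 and 10.07, all of which overlapped with B6. The dim probe set 1416124_at did not overlap, at 4.52 to 4.65 in B6. It read 4.02 to 4.31 in B6-ChrXTMSM, 4.12 to 4.31 in XS39-tel and 4.06 to 4.46 in the F1 males, without a call. Of all member probe sets tested with limma, 0 of 19 were called in B6-ChrXTMSM (8 with an unadjusted p under 0.05), where 0.307% of all probe sets were called. Without B6-ChrXTMSM replicate 2, 1 Ccnd1 probe set was called there. In XS39-tel 0 of 19 were called (3 unadjusted) against 0.649% of all, and in the F1 males 0 of 19 (2 unadjusted) against 0.54%. In B6-ChrXMSM 1 of 18 was called, a Ccnd1 probe set described below, against 1.68% of all.

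Between 5 and 7 dpp the Ccnd2 signal changed less in the substitution strains than in B6, a difference that was called in B6-ChrXTMSM. The log2 fold change of the shown probe set from 5 to 7 dpp was -0.36 in B6-ChrXMSM (adjusted p = 0.0193) and -0.27 in B6-ChrXTMSM (adjusted p = 0.046), neither of which reached the fold minimum in the limma fits. No member was called with limma between the ages in these strains, 0 of 18 in each (9 unadjusted in each, 8 and 2 with an adjusted p under 0.05), where 2.48% and 0.839% of all probe sets were called. The test of the difference itself, the age change of the strain minus that of B6, gave 0.63 for the shown probe set in B6-ChrXTMSM (SE 0.09, adjusted p = 0.00159 from limma), and all 7 Ccnd2 probe sets were called there, with values of 0.63 to 0.87. These were the 7 member probe sets called of 20, against 5.18% of all, and 4 remained called without B6 replicate 1 of 7 dpp. In B6-ChrXMSM the value was 0.53 (SE 0.09, adjusted p = 0.0135 from limma), under the fold minimum, and 1 of 20 member probe sets was called, Ccnd2 1416123_at at 0.63, against 1.4% of all. The count of called members was 0 without B6 replicate 1 of either age, and 2 to 5, from Ccnd2 and Cdkn2c, without any 1 of 9 of the other 10 testes. The adipose list means of B6 fell between the ages as given above, and their part in the age differences was not tested.

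**Figure D2:**
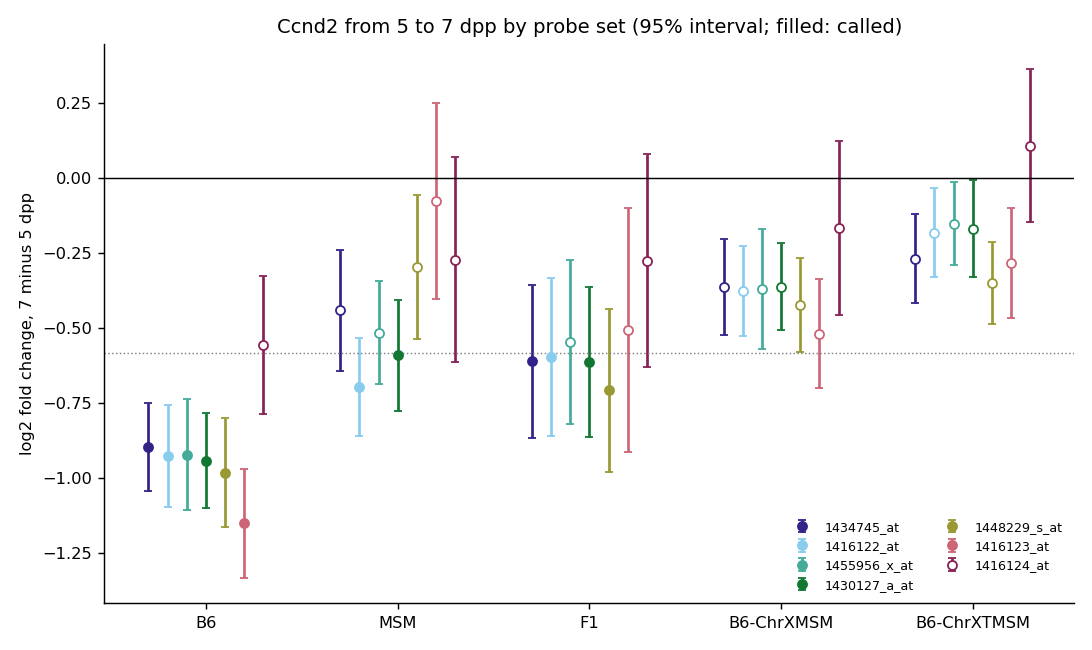
Log2 fold change from 5 to 7 dpp (vertical axis) of the 7 Ccnd2 probe sets in 5 strains (horizontal axis), with 95% intervals and filled points for called changes. In B6, 6 probe sets were called, from -0.90 to -1.15, and none in B6-ChrXMSM or B6-ChrXTMSM.

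In the F1 males, the Ccnd2 signal at 7 dpp was spread from 9.12 to 9.65 with a median of 9.48 (n = 8), between the ranges of B6 and B6-ChrXTMSM and overlapping with B6. The log2 fold change was 0.34 against B6 (95% interval 0.09 to 0.59, adjusted p = 0.0996 from limma) and -0.31 against B6-ChrXTMSM (95% interval -0.56 to -0.06, adjusted p = 0.167 from limma). Of 20 member probe sets, 1 was called against B6, a Ccnd1 probe set, where 1.72% of all were called, and 0 against B6-ChrXTMSM (10 unadjusted, limma), where 0.325% of all were called. At 5 dpp 0 of 18 differed between the F1 males and B6-ChrXTMSM (0 unadjusted, limma), against 0.0483% of all. From 5 to 7 dpp the F1 signal fell by 0.61 on the log2 scale (SE 0.11, adjusted p = 0.00646 from limma), and 4 of the 7 Ccnd2 probe sets were called lower, which were the whole of the members called of 20 tested, against 5.59% of all. Leaving out F1 replicate 2 of 5 dpp, or F1 male 2 or 5 of 7 dpp, reduced these calls to 1. The age change of the F1 males minus that of B6 was called for 0 of 20 (1 unadjusted, limma), against 0.0117% of all, and the value for the shown Ccnd2 probe set was 0.29 (95% interval -0.06 to 0.63).

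The F1 males at 7 dpp did not form a tight group, and Ccnd2 and Ccnd1 ordered them in opposite ways. Males 1, 2 and 5 had the lowest Ccnd2 signals, 9.25, 9.17 and 9.12, and the highest Ccnd1 signals, 5.72, 5.71 and 5.74. The other 5 males had Ccnd2 signals of 9.47 to 9.65 and Ccnd1 signals of 4.80 to 5.29. The list mean of differentiating spermatogonia was 5.60, 5.33 and 5.72 in males 1, 2 and 5 and 4.50 to 5.20 in the others, so the same 3 males were highest in it. Cdkn2c followed Ccnd2, at 6.16, 6.39 and 6.39 in these 3 males and 6.68 to 6.85 in the others. Some other signals split the males differently. The retinoblastoma gene Rb1 read 5.74 to 5.83 in males 1 to 4 and 6.19 to 6.48 in males 5 to 8. List means of peritubular myoid markers were 6.31 to 6.61 and 6.01 to 6.20 in the same order. The cause of this split was not tested. Since the males fell into separate clusters, no correlation over them alone is given.

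**Figure D3:**
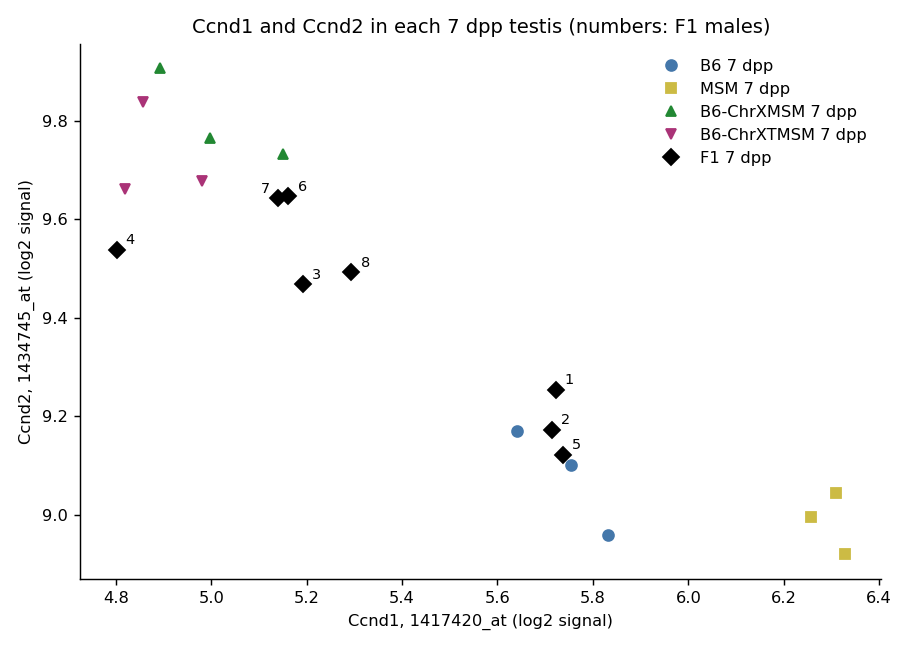
Log2 signal of Ccnd1 (horizontal axis) against that of Ccnd2 (vertical axis) in each of the 20 testes at 7 dpp, with the F1 males numbered by replicate. Males 1, 2 and 5 lay beside the B6 testes, with Ccnd1 at 5.71 to 5.74, and the other F1 males lay toward B6-ChrXTMSM.

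In MSM, the Ccnd2 probe sets disagreed. Only 1416123_at and 1448229_s_at of the 7 were called lower than in B6 at both ages, with log2 differences of -1.81 and -1.69 at 5 dpp (adjusted p = 1.02e-05 and 3.91e-06 from limma) and -0.73 and -0.998 at 7 dpp (adjusted p = 0.000717 and 4.53e-05 from limma). At 5 dpp 1416123_at read 5.83, 5.31 and 5.58 in MSM and 7.47, 7.34 and 7.33 in B6. The other 5 gave -0.20 to -0.55 at 5 dpp and -0.21 to 0.08 at 7 dpp, with no call. The shown probe set read 9.56, 9.28 and 9.45 in MSM at 5 dpp, all under the lowest B6 testis at 9.95, and 8.996, 9.05 and 8.92 at 7 dpp, which overlapped with B6. The lists of polymorphic probe sets used here covered chromosomes 1 and X, and none was used here for the chromosomes of these genes, so the part of probe mismatch in the MSM differences was not tested. From 5 to 7 dpp in MSM, Ccnd2 1416122_at fell by 0.70 and 1430127_a_at by 0.59 on the log2 scale, the latter losing its call without MSM replicate 1 or 3 of 5 dpp or replicate 3 of 7 dpp.

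**Figure D4:**
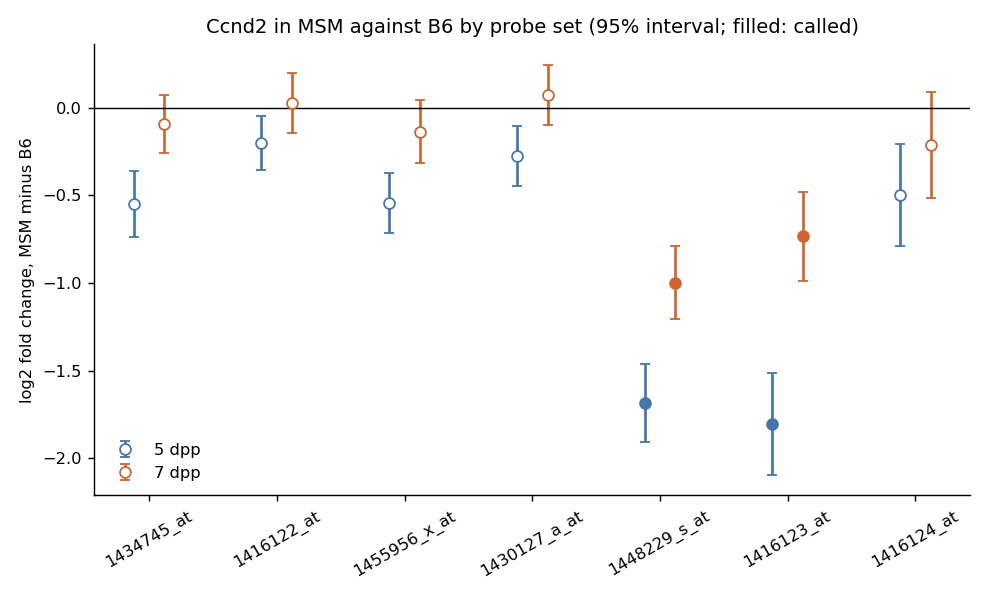
Log2 fold change of MSM against B6 (vertical axis) for the 7 Ccnd2 probe sets (horizontal axis, by falling mean signal) at both ages, with 95% intervals and filled points for called differences. At 5 dpp 1416123_at and 1448229_s_at lay at -1.81 and -1.69 and the other 5 between -0.20 and -0.55.

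Across all members, MSM differed from B6 at 5 dpp in 5 of 20 probe sets, 3 higher and 2 lower, where 28.3% of all probe sets were called and the medians were -0.12 over the members and 0.08 over all. Of the higher ones, Cdkn1a 1421679_a_at passed the filter through MSM alone. At 7 dpp MSM differed from B6 in 2 of 20, both lower, where 17.3% were called, and without B6 replicate 2 of 7 dpp the count was 4, with Ccnd1 added. Between the ages in MSM, 2 were higher and 4 lower of 20, against 14.7% of all, with medians of -0.29 over the members and 0.05 over all. At 7 dpp the medians were 0.06 over the members and 0.11 over all. Lists of several cell types moved with these differences at 5 dpp. Germ cell markers had list means of 5.65 to 6.04 in MSM against 5.01 to 5.18 in B6, with 5 of 9 called higher, and markers of undifferentiated spermatogonia 5.00 to 5.13 against 4.16 to 4.31, with 6 of 12 called higher. Of the markers of peritubular myoid cells and of vascular endothelium, 2 of 5 and 2 of 4 were called higher. Of macrophage and Leydig cell markers, 2 of 5 and 1 of 4 were called lower and 0 higher, with list means that overlapped between the strains. For macrophages these were 3.87 to 4.30 in MSM and 4.22 to 4.57 in B6, and for Leydig cells 5.983 to 6.908 and 6.755 to 7.182. Of 10 Sertoli cell markers, 2 were called higher and 1 lower. These counts stand beside the 28.3% of all probe sets called, and counts near that share are not read as a change of a cell type. The part of these cell types in the MSM differences of Ccnd2, Cdk2 and Cdkn1a was not tested.

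The D cyclin Ccnd1 moved opposite to Ccnd2 in the substitution strains. At 7 dpp its shown probe set (1417420_at) read 5.83, 5.64 and 5.75 in B6, against 4.89, 5.00 and 5.15 in B6-ChrXMSM and 4.82, 4.98 and 4.86 in B6-ChrXTMSM, so that neither strain overlapped with B6. The signal was 1.66-fold lower in B6-ChrXMSM (log2 fold change -0.73, SE 0.08, adjusted p = 0.000355 from limma) and 1.81-fold lower in B6-ChrXTMSM (log2 fold change -0.86, SE 0.07, adjusted p = 0.000234 from limma). Probe set 1417419_at was called lower in both as well, at -0.97 and -1.19, and the third, 1448698_at, gave -0.37 and -0.45, under the fold minimum. In the F1 males 1417419_at was called lower than in B6 at -0.75 (adjusted p = 0.029 from limma), while the shown probe set gave -0.40 (95% interval -0.79 to -0.01, adjusted p = 0.186 from limma). The F1 call was lost, and 0 member probe sets were called, without any 1 of the 3 B6 testes or without F1 male 6 or 7.

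At 5 dpp the Ccnd1 signal was already low in B6-ChrXMSM, with 4.43, 5.17 and 4.56 against 5.52, 5.55 and 5.25 in B6. These values did not overlap, but the spread within B6-ChrXMSM was wide and the shown probe set was not called (log2 fold change -0.72, 95% interval -1.15 to -0.28, adjusted p = 0.0735 from limma). The call rested on 1417419_at, at -0.64 (adjusted p = 0.0342 from limma). Without any 1 of the B6 testes, or without B6-ChrXMSM replicate 1 or 3, 0 member probe sets were called, and without B6-ChrXMSM replicate 2 there were 2. In B6-ChrXTMSM at 5 dpp the shown probe set read 5.22, 5.07 and 4.90 and 1417419_at 4.002, 4.354 and 4.033 against 4.80, 4.84 and 4.67 in B6, all below every B6 testis. Neither difference was called, at -0.37 (adjusted p = 0.14 from limma) and -0.64 (adjusted p = 0.0531 from limma). Germ cell markers moved in B6-ChrXMSM, with general germ cell markers at 3.12 to 4.21 in B6-ChrXMSM and 5.01 to 5.18 in B6 and 7 of 9 tested called lower, against 0 of 9 in B6-ChrXTMSM (4 unadjusted, limma). The XS39-tel testes were the most unlike each other for Ccnd1, at 6.06, 5.10 and 4.62 (SD 0.73), and their adipose list means were 4.42, 2.24 and 2.16 in the same order. In MSM the values 5.67, 6.17 and 5.76 stood beside adipose list means of 2.89, 5.25 and 4.19, and in B6 the testis lowest in Ccnd1 was also the lowest in adipose markers, at 2.54. In B6-ChrXMSM the adipose list means were 2.04, 3.46 and 4.18. In B6-ChrXTMSM they were 2.22, 2.25 and 4.08, and the testis highest in them was the lowest in the shown Ccnd1 probe set. Ccnd1 also had a wide spread in the F1 males of 5 dpp, at 4.74, 5.05 and 5.68, beside adipose list means of 2.68, 2.12 and 2.96. The part of adipose tissue in the Ccnd1 signal was not tested.

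The strain order of Ccnd1 at 7 dpp was B6-ChrXTMSM, B6-ChrXMSM, F1, B6 and MSM, from 4.89 to 6.30 in the group means. B6-ChrXTMSM and B6-ChrXMSM overlapped, and the F1 males spanned the range from both of them to B6. MSM stood above every other group at 6.26, 6.31 and 6.33, a log2 difference from B6 of 0.56 that fell short of the fold minimum (adjusted p = 0.000202 from limma). For Ccnd2 the order ran the other way, MSM, B6, F1, B6-ChrXTMSM and B6-ChrXMSM, from 8.99 to 9.80, with overlaps between MSM and B6 and between both substitution strains. In MSM, Ccnd1 1417419_at rose by 1.05 from 5 to 7 dpp (adjusted p = 0.000158 from limma), and the shown probe set by 0.43, not called.

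**Figure D5:**
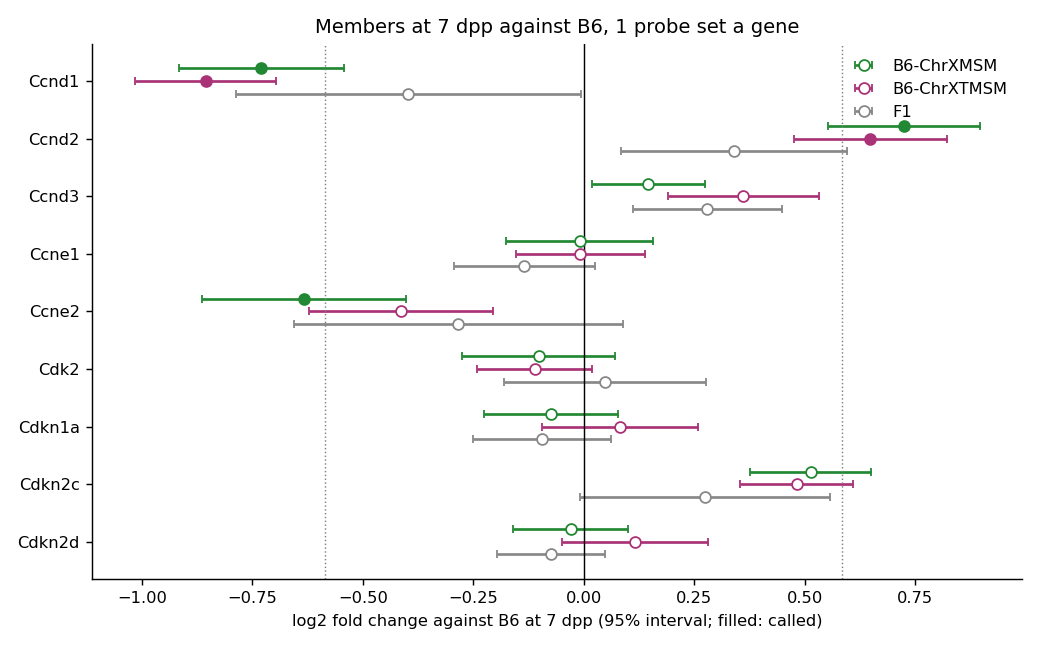
Log2 fold change against B6 at 7 dpp (horizontal axis) of 9 members by their shown probe set (vertical axis) in B6-ChrXMSM, B6-ChrXTMSM and the F1 males, with 95% intervals, filled points for called differences and dotted lines at the fold minimum. Ccnd1 lay at -0.73 and -0.86 and Ccnd2 at 0.72 and 0.65 in the substitution strains, with the F1 males nearer to 0 for both.

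Ccnd3, a D cyclin of many tissues, was lower at the later age in B6 without a call. Its shown probe set (1415907_at) read 6.10, 6.17 and 6.13 at 5 dpp and 5.55, 5.63 and 5.56 at 7 dpp in B6, a log2 difference of -0.56 (SE 0.05, adjusted p = 0.000154 from limma), which is 1.47-fold. In MSM the fall was -0.62 and was called (adjusted p = 0.00106 from limma), although not without MSM replicate 2 of 5 dpp or replicate 1 of 7 dpp. At 7 dpp the B6-ChrXTMSM testes read 5.86, 5.86 and 6.09, above all B6 testes, by 0.36 on the log2 scale (adjusted p = 0.00646 from limma), and the B6-ChrXMSM testes 5.73, 5.68 and 5.76, with 0.15 (adjusted p = 0.0676 from limma). Neither was called. The F1 males, at 5.69 to 6.04, and the MSM testes, at 5.88 to 6.04, also lay above all B6 testes of 7 dpp, without a call. At 5 dpp the MSM testes read 6.46 to 6.77 against 6.10 to 6.17 in B6, which was not called either. A dim second probe set, 1438805_at, passed the filter in 3 of the 11 groups. Where B6-ChrXMSM and B6-ChrXTMSM were compared with B6 at 7 dpp it passed through B6 alone, so no size is given for its differences. Probe set 1444323_at passed the filter in none of the groups.

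Of the E cyclins, Ccne2 differed and Ccne1 did not pass a call in any comparison. Ccne2 (1422535_at) read 5.51, 5.85 and 5.76 in B6 at 7 dpp and 5.09, 5.19 and 4.93 in B6-ChrXMSM, without overlap, a log2 fold change of -0.63 (SE 0.10, adjusted p = 0.00192 from limma). The call was lost by the fold minimum without B6 replicate 2 or without B6-ChrXMSM replicate 3, with a lowest size of -0.56. In B6-ChrXTMSM it read 5.20, 5.33 and 5.34, a log2 difference from B6 of -0.41 (adjusted p = 0.00846 from limma), which was not called, and the difference between the substitution strains was not tested. The F1 males spread over the whole of that range, from 4.93 to 5.85 with a median of 5.51. At 5 dpp no Ccne2 difference from B6 was called, but the B6 testes, at 5.51 to 5.58, lay above every testis of the other groups. Ccne2 read 5.03 to 5.28 in B6-ChrXMSM, 5.30 to 5.35 in B6-ChrXTMSM and 5.18 to 5.37 in XS39-tel. It read 4.87 to 5.40 in the F1 males and 5.00 to 5.12 in MSM. In MSM, Ccne2 rose between the ages from 5.00, 5.12 and 5.05 to 5.78, 5.86 and 5.59, a 1.61-fold change (log2 fold change 0.69, SE 0.09, adjusted p = 0.00035 from limma). In B6 the same change was 0.15 (95% interval -0.05 to 0.35), and the difference between the strains in this was not tested.

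Ccne1 had group means from 3.999 in the F1 males at 7 dpp to 4.54 in MSM at 5 dpp by its shown probe set (1441910_x_at). Between both substitution strains and B6 at 7 dpp the log2 differences were -0.01 and -0.01, with 95% intervals of -0.18 to 0.16 and -0.15 to 0.14. Its other probe set, 1416492_at, passed the filter through B6 alone in these comparisons and lay under it in both substitution strains, so no size is given for its differences. The MSM testes were higher than B6 by 0.33 at 5 dpp and 0.27 at 7 dpp, below the fold minimum.

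Cdk2, the kinase partner of the E cyclins, stood out in MSM at 5 dpp. Its shown probe set (1416873_a_at) read 7.55, 7.49 and 7.54 in MSM against 6.86, 6.88 and 6.94 in B6, 1.55-fold higher (log2 fold change 0.63, SE 0.06, adjusted p = 5.18e-05 from limma), and this call held under all 13 alternatives. At 7 dpp MSM read 7.05, 7.14 and 7.07 and B6 7.08, 7.00 and 7.12, a log2 difference of 0.02 (95% interval -0.12 to 0.16). In XS39-tel at 5 dpp the values 7.09, 7.20 and 7.68 lay above those of B6 with a wide spread, and the difference of 0.43 on the log2 scale was not called (adjusted p = 0.209 from limma). Group means elsewhere ran from 6.89 to 7.12. A second probe set, 1447617_at, was under the filter in every group. Ccna1 (1449177_at) was under the filter in every group too, with a mean of 0.49 over all arrays and a highest testis of 1.19, so no comparison was made for it.

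Among the INK4 inhibitors, Cdkn2c (1416868_at) had the age pattern of Ccnd2 at a smaller size. In B6 it read 6.94, 6.79 and 6.88 at 5 dpp and 6.33, 6.27 and 6.33 at 7 dpp, a log2 difference of -0.56 (SE 0.05, adjusted p = 0.000229 from limma), or 1.47-fold, which was not called. In B6-ChrXMSM it was 6.91, 6.82 and 6.75 at 5 dpp and 6.74, 6.89 and 6.83 at 7 dpp, a change of -0.01 (adjusted p = 0.97 from limma). The B6-ChrXTMSM testes at 7 dpp read 6.81, 6.72 and 6.84. Both strains thus lay above B6 at 7 dpp without overlap, by 0.51 (adjusted p = 0.000447) and 0.48 (adjusted p = 0.000718), in both cases below the fold minimum and not called in the limma fits. The age changes differed from that of B6 by 0.55 in B6-ChrXMSM and 0.45 in B6-ChrXTMSM (adjusted p = 0.00936 and 0.00262 from limma), also short of a fold of 1.5. Over the 38 arrays the Pearson correlation of Cdkn2c with Ccnd2 was 0.82, which describes arrays that share strain and age.

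Cdkn2d (1416253_at) had group means from 5.55 to 5.83 in all groups but MSM at 5 dpp. There it read 5.19, 5.20 and 5.19 against 5.67, 5.84 and 5.74 in B6, a log2 difference of -0.55 (SE 0.07, adjusted p = 0.000179 from limma) that missed the fold minimum. At 7 dpp MSM was back in the range of the other groups at 5.64, 5.55 and 5.74. In B6-ChrXMSM and B6-ChrXTMSM at 7 dpp the log2 differences from B6 were -0.03 (95% interval -0.16 to 0.10) and 0.12 (95% interval -0.05 to 0.28).

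Cdkn1a, the p53 target, was dim in every strain and highest in MSM. Its shown probe set (1424638_at) read 4.36, 5.18 and 4.25 in MSM at 5 dpp and 3.36, 3.70 and 3.40 in B6, 2.16-fold higher (log2 fold change 1.11, SE 0.23, adjusted p = 0.00311 from limma). The other probe set, 1421679_a_at, passed the filter through MSM alone, with a B6 mean just under it, so no size is given for its difference. Its call was lost without MSM replicate 2. That testis was also the highest of its group in adipose markers, with list means of 2.89, 5.25 and 4.19 in the order of the Cdkn1a values, and in B6 the testis with the highest list mean, 5.22, had the lowest Cdkn1a signal, 3.36. XS39-tel replicate 1 had both a Cdkn1a signal of 4.21, against 3.61 and 3.62 in its group, and an adipose list mean of 4.42, against 2.24 and 2.16. The part of adipose tissue in the Cdkn1a signal was not tested. At 7 dpp the MSM testes read 4.21, 3.90 and 3.89, above all B6 testes, by 0.53 without a call (adjusted p = 0.00202 from limma). The fall between the ages in MSM was -0.60 and was called at an adjusted p of 0.048 (limma), a call that was lost without MSM replicate 2 of 5 dpp or any of the 3 MSM testes of 7 dpp.

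The wider cell cycle was represented by a list of 46 other regulators, 44 with a probe set, and by 10 proliferation genes. At 7 dpp, 1 of 39 tested was called in B6-ChrXMSM and in B6-ChrXTMSM, against 6.08% and 5.73% of all probe sets. It was Cdkn2a, which encodes the INK4 inhibitor p16 and the ARF protein. Without the fold minimum, 24 and 26 of the 39 had an adjusted p below 0.05 (limma). The share of all probe sets at that level is not given here, so these counts are not read as particular to the list. The medians of the list were 0.10 and 0.09, against 0.005 and 0.02 over all probe sets. Cdkn2a read 3.38, 3.36 and 3.95 in B6, 2.30, 1.90 and 2.30 in B6-ChrXMSM and 1.83, 2.33 and 1.72 in B6-ChrXTMSM. It passed the filter through B6 at 7 dpp alone and lay under it in both substitution strains, and in B6 at 5 dpp with 2.40, 1.77 and 1.92, so no size is given for its differences. Between the ages in B6, Cdkn2a was called higher while Ccna2, the S phase A cyclin, and Cdkn1c (p57) were called lower, by -0.72 and -0.97, which made 1 higher and 2 lower of 39, or 3 in all, where 8.34% of all probe sets were called. The age change of Ccna2 differed from that of B6 by 0.64 in B6-ChrXMSM (adjusted p = 0.00317 from limma), the 1 called of 40 tested, against 1.4% of all. Ccna2 stayed at 7.98, 7.95 and 7.97 there at 7 dpp against 7.38, 7.38 and 7.45 in B6. In B6-ChrXTMSM it read 7.90, 7.85 and 8.06 at 7 dpp, also above every B6 testis, but its age change was not called different. For that strain 1 age change of 40 was called higher, Cdkn1c at 0.62 (adjusted p = 0.00619 from limma), and 1 lower, Cdkn2a, against 5.18% of all.

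In MSM at 5 dpp, 5 of 38 were higher and 2 lower, against 28.3% of all probe sets, among them E2f1 at 0.96, Ccnf at 0.89 and Rb1 at 0.82 and, on the low side, Cdkn1b (p27) at -1.19 and Skp2, which marks p27 for breakdown, at -0.71. At 7 dpp Rb1 was called higher (0.76) and Cdkn1b (-0.64) and Cdkn2a lower, of 41 tested, against 17.3% of all, and Cdkn2a lay under the filter in MSM at 0.87, 1.35 and 1.06. Between the ages in MSM, 1 was higher and 7 lower of 40, against 14.7% of all. Of the 10 proliferation genes 0 were called in any of the 19 comparisons with limma, and from 0 to 7 of them had an unadjusted p under 0.05, the most between the ages in B6. Those 7 also had an adjusted p under 0.05 and missed the fold minimum, as did 5 in MSM against B6 at 5 dpp and 4 in B6-ChrXTMSM at 7 dpp. The share of all probe sets at that level is not given here. The median of the proliferation genes was 0.015 in B6-ChrXMSM and 0.03 in B6-ChrXTMSM at 7 dpp on the log2 scale, against 0.005 and 0.02 over all probe sets, and -0.22 between the ages in B6, against 0.02.

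The genes whose signals were most like those of a member over the 38 arrays, of 10797 genes compared, are given for the members called between strains. Those most like Ccnd2 were Adamts16, Plbd1 and Inhba, the activin subunit, with Pearson correlations of 0.95, 0.94 and 0.94. For Ccnd1 they were Tox3, Epcam and Cadps2, with 0.91, 0.90 and 0.90. For Ccne2 they were Cct4, Fmr1 and Foxn2 (0.81, 0.80 and 0.79), for Cdk2 Ganab, Ttc17 and Asb8 (0.89, 0.87 and 0.87), and for Cdkn1a Ssr1, Agrn and Ednrb (0.88, 0.87 and 0.87). Among the members themselves, Ccnd1 and Ccnd2 had a correlation of -0.71. These are descriptions over arrays that share strains and ages, and after group means were removed those of the 5 members with these other genes ran from 0.44 (Ssr1 with Cdkn1a) to 0.87 (Ganab with Cdk2).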

How the data were processed

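The deposited log2 values were used as given. The authors made them from Affymetrix mouse genome arrays with RMA, which corrects the background, quantile-normalizes all arrays and summarises the probes of a set, and deposited 45101 probe sets for 38 arrays. RMA pulls arrays to 1 distribution, so a shift of all genes would be hidden, and dim signals are compressed. Array number limits the precision, since each group held 3 males (8 F1 males at 7 dpp).

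Probe sets with 1 gene symbol were kept (34958 of 45101, of which 34871 lay on an autosome or the X chromosome), without 373 X-linked sets listed as polymorphic and, where MSM or F1 males were compared, without 993 of chromosome 1. No member was among them, since none lies on these chromosomes, and polymorphism scores of other chromosomes were not used here. Each of 19 comparisons (11 between strains, 5 between ages, 3 of the age changes) was fitted on its own groups with limma 3.58.1 in R 4.3.3 on probe sets with a group mean above 3.32. A call needed an adjusted p below 0.05 (Benjamini-Hochberg) and a fold of 1.5. The script was tested on simulated data. Alternatives were no expression filter, all arrays in 1 fit, a variance trend, the replicate number as a block, no fold minimum, array medians subtracted, repeated quantile normalization, and each replicate left out. The named genes were the members, at most 5 called genes of the other regulators per comparison, and the 3 genes most like a called member. The members and lists were chosen with earlier results of these data known. Each array was 1 male, so the spread within a group is between animals, and no pair of arrays in a group was identical. Upstream windows came from RefSeq (GRCm38.p6).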

Additional observations from a re-analysis of the deposited data

Results flagged for a closer look

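Age changes of Ccnd2 differed from those in B6 by the test of the difference itself, for all 7 probe sets in B6-ChrXTMSM and for 1 in B6-ChrXMSM. In B6-ChrXTMSM the change from 5 to 7 dpp exceeded that of B6 by 0.746 (1416122_at), 0.867 (1416123_at), 0.666 (1416124_at), 0.774 (1430127_a_at), 0.629 (1434745_at), 0.633 (1448229_s_at) and 0.769 (1455956_x_at) on the log2 scale. In B6-ChrXMSM it did so by 0.632 (1416123_at). The 7 probe sets read 1 gene in the same arrays and are not independent of each other, and the same 6 B6 testes served both strains. In the F1 males at 7 dpp, the only group large enough for a test of single outlying samples, none of 19 member probe sets had an outlying male.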

How the results depend on the processing

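The log2 differences of called member probe sets kept their sign in every refit, and 673 refits kept the call and 50 did not. Counts of called members were within 1.5 times the main count in 235 of the refits and outside it in 50, of which 28 left out a replicate. With the adjusted p alone and no fold minimum, the counts were 2 (from 1) in B6-ChrXMSM and 16 (from 5) in MSM against B6 at 5 dpp, and 14 (from 9) in B6-ChrXMSM, 14 (from 8) in B6-ChrXTMSM and 11 (from 2) in MSM at 7 dpp. Between the ages they were 13 (from 6) in B6, 14 (from 6) in MSM, 8 (from 0) in B6-ChrXMSM and 2 (from 0) in B6-ChrXTMSM, and for the age changes against that of B6 they were 7 (from 1) in B6-ChrXMSM and 11 (from 7) in B6-ChrXTMSM. The shares of all probe sets at the adjusted p alone are not given here, so these counts are not read as particular to the members. B6-ChrXMSM at 5 dpp had 0 calls without the expression filter or with all 38 arrays in 1 fit and 2 with a variance trend. B6-ChrXTMSM at 5 dpp had 1, of Ccnd1, with a variance trend, with array medians subtracted or with quantile normalization repeated. The age change of B6-ChrXMSM against B6 had 0 with all 38 arrays in 1 fit, 6 with medians subtracted and 2 with quantile normalization repeated.

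With 1 replicate left out, the counts ran from 0 to 2 in B6-ChrXMSM at 5 dpp, from 0 to 1 in B6-ChrXTMSM at 5 dpp, from 0 to 1 in the F1 males against B6 at 7 dpp, from 2 to 4 in MSM at 7 dpp, from 1 to 5 between the ages in the F1 males, and, for the age change against B6, from 0 to 5 in B6-ChrXMSM and from 4 to 8 in B6-ChrXTMSM. Replicate numbers did not pair the samples, since in 0 of 16 comparisons did every pair of equal number deviate together. With the replicate block the count was 0 for the F1 males against B6 at 7 dpp and 7 between the ages in the F1 males, and it stayed within 1.5 times the main count in the other 17 comparisons. The cause of these moves was not tested. The number of arrays limits the precision, and Ccna1 was too dim to compare.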
